A study of Mus musculus with 10 samples.

Results

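The ubiquitin-specific proteases (USPs) form the largest family of deubiquitinases, the enzymes that take ubiquitin off other proteins. Their members were chosen here by name from the array annotation, as every gene whose symbol is Usp and a number, alone or followed by x or by l, whatever its values. The Y-linked Usp9y falls outside this rule. Of the 49 genes found in this way, 48 were measured on a probe set of their own, among 19939 measured genes in all. The remaining one, Usp49, shared its probe set with Med20 and was not analysed here. One member, Usp25, lies in the stretch of chromosome 16 that is duplicated in the mouse line studied, so its gene is present in 3 copies there. All other members are outside that stretch and have 2 copies in males, or 1 for those on the X chromosome, in both groups.

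RNA of the left and right hippocampus was measured on Affymetrix Mouse Gene 1.0 ST arrays, with 1 array per mouse. The Dp3Yah group held 5 male mice that carry the duplication Dp(16Hspa13-App)3Yah, a model of part of human trisomy 21. The control group held 5 male littermates without it. All were 16 weeks old and untreated. The labels give the background as C57BL/6N, while the study's methods describe backcrossing of the line towards C57BL/6J. According to the methods App, at the distal end of the duplication, is complete in only 2 copies. The comparison asked whether a deubiquitinase in 3 copies was overexpressed, and whether its relatives differed with it.

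Ubiquitin is attached to proteins as single units or as chains, which can send a protein to the proteasome, alter its place in the cell or change its partners. A USP cuts the bond through a cysteine protease domain, and the parts of the protein outside that domain choose its targets. In neurons these enzymes act on protein turnover at synapses, on receptor recycling and on damaged mitochondria. Usp25 and Usp28 are sister enzymes with the same domain order. Usp25 stabilises tankyrases and trims chains from Traf adaptors of inflammatory signalling, whereas Usp28 opposes the ubiquitin ligase Fbxw7 on targets such as Myc.

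All values are log2 of the array signal, and a change is the Dp3Yah mean minus the control mean. Array medians were 5.64 to 5.71, all arrays differed from each other, and the precision is limited by their number. Of the members, 39 were above the median level of all genes (6.38) and 9 were below it (Usp18, Usp26, Usp35, Usp37, Usp40, Usp43, Usp44, Usp50 and Usp51). Markers of hippocampal neurons averaged 8.59 to 8.94 in Dp3Yah mice and 8.65 to 8.86 in controls (9 of 9 measured). This average takes in genes of different subfields. C1ql2, a marker of dentate granule cells, had a change of -0.24 with all 5 Dp3Yah mice below every control (SE 0.052, limma adjusted p = 0.708). Prox1 and Dsp, also of granule cells, were lower too (-0.18 and -0.13). Fibcd1, a marker of CA1, had a change of 0.25. Wfs1, Neurod6 and Spink8, of pyramidal cells, were higher too (0.12, 0.08 and 0.06). Grik4 and Zbtb20 had changes of -0.01 and -0.02. Of the 9 genes 0 had a limma adjusted p under 0.05, and their part in the member values was not tested. Choroid plexus markers (8 of 10 measured) spanned 6.18 to 8.14 in Dp3Yah mice and 6.11 to 8.28 in controls, and were high in Dp3Yah replicates 1, 2 and 5 and in control replicates 1 and 5. Dp3Yah replicate 2 stood apart from the other arrays on the first principal component, which held 26.2% of the variance.

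Usp25 had the largest change of all members. Its log2 value was 9.02, 8.97, 8.87, 8.97 and 8.84 in Dp3Yah replicates 1 to 5, against 8.63, 8.42, 8.66, 8.55 and 8.60 in control replicates 1 to 5. Every Dp3Yah mouse lay above every control, and the gap between the lowest Dp3Yah mouse and the highest control was wider than the gaps within the Dp3Yah group. The means were 8.93 ± 0.073 in Dp3Yah and 8.57 ± 0.096 in control (SD, n = 5 each), a change of 0.36 or 1.29-fold. The 95% interval of the fold ran from 1.19 to 1.40, below 1.5, the ratio of 3 copies to 2. Whether the array signal follows the copy number in full was not examined. In the limma fit the unadjusted p was 1.6e-05 and the adjusted p over all genes 0.0785, above the threshold of 0.05. The exact permutation p of this value was 0.00794, the smallest that 5 mice against 5 allow.

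The Usp25 change kept its size when any 1 mouse was left out, between 0.33 and 0.39, with limma adjusted p of 0.0885 to 0.264. It passed the threshold in limma with a trended and robust variance (adjusted p = 0.0447) and with array weights (0.0455). It did not pass with the replicate number as a block (0.341), quantile normalisation (0.0803), median centring (0.0547) or only genes above the median level (0.0519). Nor did it pass with other choices of probe sets (0.0764 and 0.0893). Among the 9 genes of the duplicated stretch that were above the median level, only Atp5j, a subunit of ATP synthase, had a smaller change than Usp25 (0.28). The largest was that of Hspa13 (0.60), an Hsp70-type chaperone. Microglial markers were also higher in Dp3Yah mice in all 8 measured genes. They averaged 8.12 to 8.35 in Dp3Yah mice and 8.03 to 8.17 in controls. Oligodendrocyte and endothelial markers were higher in Dp3Yah mice in 3 of 6 and 1 of 5 measured genes. The part of these cell types in the Usp25 value was not tested. In bulk tissue, more cells of a type and more RNA per cell cannot be told apart.

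**Figure D1:**
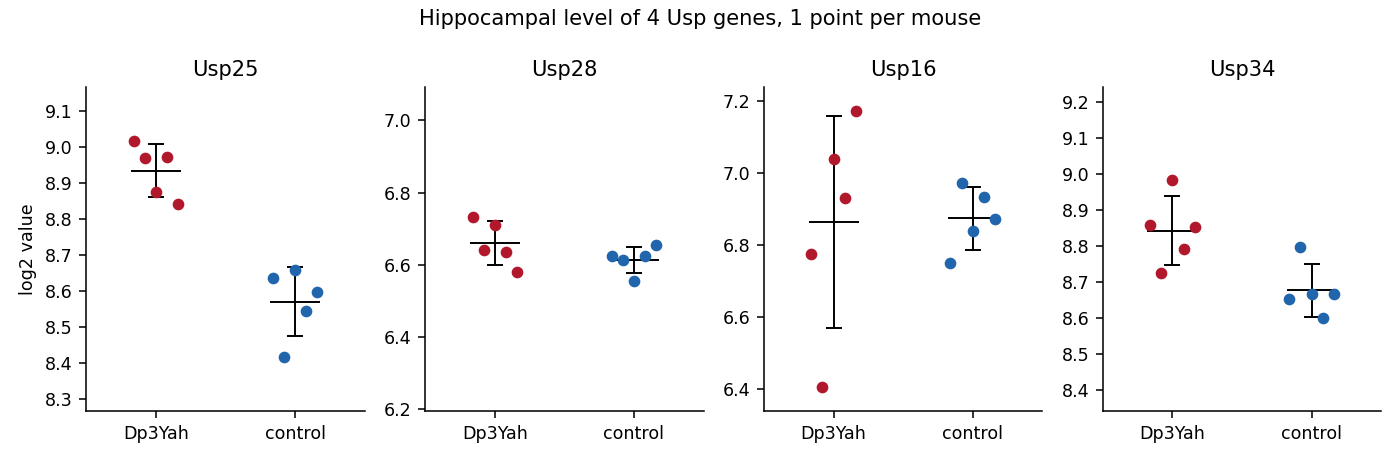
Log2 value of Usp25, Usp28, Usp16 and Usp34 in each mouse (points), with the group mean and SD (bars, n = 5 each). Every panel spans the same log2 range around its own middle. The 5 Dp3Yah mice lie above all controls for Usp25, while the groups overlap for the other 3 genes.

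Usp28, the sister of Usp25 on chromosome 9, lay close to its control level. Its log2 values were 6.73, 6.64, 6.71, 6.63 and 6.58 in Dp3Yah mice and 6.62, 6.61, 6.55, 6.62 and 6.65 in controls. The groups overlapped, and 2 of 5 Dp3Yah mice were above every control. The change was 0.05 (SE 0.041, 95% interval -0.04 to 0.13, limma adjusted p = 0.942, exact permutation p = 0.198). With Usp28 among the 4 least variable members (within-group SD 0.051), the interval leaves out a change of the size of Usp25's.

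Usp16 is a protease that removes ubiquitin from histone H2A. It lies on chromosome 16 as Usp25 does, at 87454985 to 87483515 of GRCm38.p6, distal of the duplication and so in 2 copies. Usp25 itself is at 77013684 to 77116783. Usp16 gave 6.77, 6.40, 7.04, 6.93 and 7.17 in Dp3Yah mice and 6.75, 6.97, 6.84, 6.93 and 6.87 in controls. The Dp3Yah mice lay on both sides of the controls, with replicate 2 lowest and replicates 3 and 5 highest. The SD was 0.295 in Dp3Yah and 0.087 in control, and the change was -0.01 (SE 0.114, 95% interval -0.26 to 0.24, limma adjusted p = 0.996). It was 0.10 without Dp3Yah replicate 2 and 0.03 with array weights, and so has no settled sign. The third member on chromosome 16, Usp7, is proximal of the duplication, and its change was 0.05 (SE 0.041, limma adjusted p = 0.939).

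The change of Usp25 was also set against those of Usp28 and Usp16 directly, by the difference of the log2 values within each array. Usp25 minus Usp28 was 2.28, 2.33, 2.16, 2.34 and 2.26 in Dp3Yah mice and 2.01, 1.80, 2.11, 1.92 and 1.94 in controls. Again no Dp3Yah mouse overlapped a control. The Usp25 change exceeded the Usp28 change by 0.32 (95% interval 0.18 to 0.45, exact permutation p = 0.00794, adjusted over the 2 differences 0.0159). Usp25 minus Usp16 was 2.24, 2.57, 1.84, 2.04 and 1.67 in Dp3Yah mice and 1.89, 1.44, 1.82, 1.61 and 1.73 in controls. Here 3 of 5 Dp3Yah mice were above every control, and the difference of 0.37 did not pass (95% interval -0.03 to 0.78, exact permutation p = 0.0635). It passed at an unadjusted level without Dp3Yah replicate 3 (0.43, exact permutation p = 0.0476) or 5 (0.47, p = 0.0159), and was 0.25 without replicate 2. The absolute size of such a difference also holds the brightness of the probes, so only its shift between the groups is read.

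**Figure D2:**
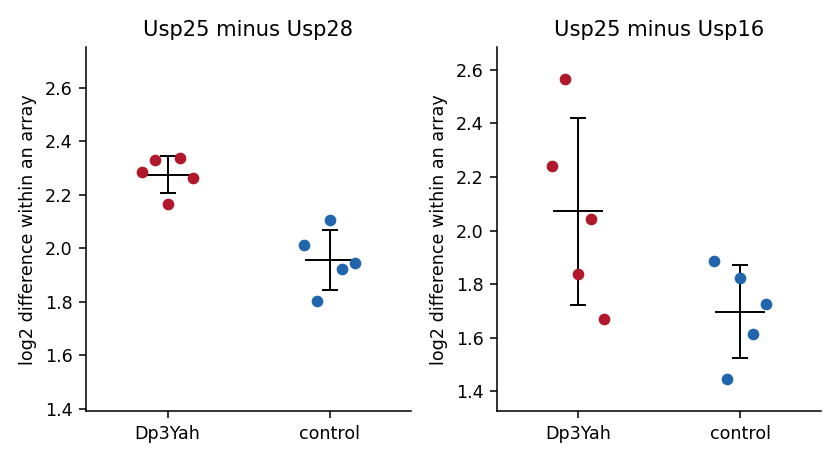
Difference of log2 values within an array, Usp25 minus Usp28 (left) and Usp25 minus Usp16 (right), per mouse (points) with group mean and SD (bars, n = 5 each). The groups are separate on the left and overlap on the right, where the Dp3Yah mice run from 1.67 to 2.57.

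Across the family, 0 of 48 members passed an adjusted p of 0.05 in limma, where 0.015% of all genes did (3 genes, all higher in Dp3Yah and all in the duplicated stretch). At an unadjusted p under 0.05, 2 members were found, Usp25 and Usp34, both higher in Dp3Yah, where 2.49% of all genes were higher and 2.59% lower at that level. This is 4.17% of the members, beside 5.08% of all genes in either direction. Usp25 alone had no overlap between groups, with Dp3Yah higher, as 0.522% of all genes did (0.913% in either direction, 0.391% with Dp3Yah lower). A rank test of the fold changes, run as an alternative, put the same 2 members past its threshold, both higher. Its f was 0.998 for Usp25 and 0.992 for Usp34. Of all genes 4.59% were past the threshold, 2.54% higher and 2.05% lower. This test scales ranks to their spread over all genes, so some genes are past its threshold in any data. Of the 47 members other than Usp25, 46 had a 95% interval that included 0. For 45 of them the upper bound lay below the lower bound of Usp25 (0.25), the exceptions being Usp34 (0.28) and Usp13 (0.28), and for all 47 it lay below the log2 of 1.5 (0.58). The distance from a change to the bound of its interval had a median of 0.12 and ran from 0.081 (Usp44) to 0.278 (Usp31), so the size of change that could be detected differed between members.

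**Figure D3:**
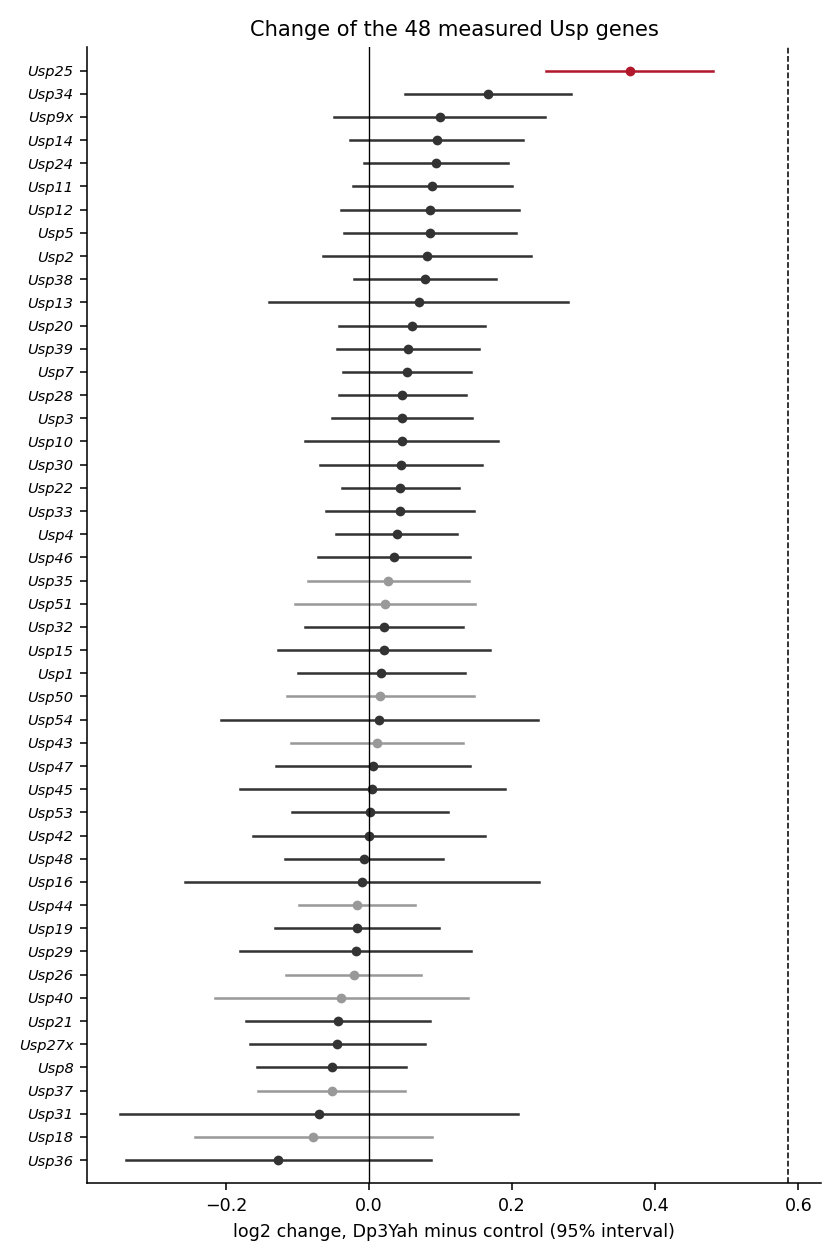
Log2 change (Dp3Yah minus control, points) with 95% interval (lines) of the 48 measured members, sorted by change. Usp25 is in red, members below the median level of all genes are in light grey, and the dashed line marks the log2 of 1.5. Apart from Usp25, only the interval of Usp34 leaves out 0.

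The members that act in signalling included the next member after Usp25. Usp34 is a very large protease that acts on axin in Wnt signalling. Its log2 value was 8.86, 8.73, 8.98, 8.79 and 8.85 in Dp3Yah mice and 8.65, 8.80, 8.67, 8.60 and 8.67 in controls. Of the Dp3Yah mice 3 were above every control, and control replicate 2 overlapped the Dp3Yah group. The change was 0.17 (SE 0.053, 95% interval 0.05 to 0.28), with an unadjusted p of 0.00868 that limma adjusted to 0.922. Its unadjusted p stayed under 0.05 without any 1 mouse (0.00291 to 0.0244). All 5 measured members of this group had a positive change, with a median of 0.09. Beside Usp34 these are Usp9x and the related Usp4, Usp11 and Usp15, which act in TGF-beta signalling. For comparison with this and the groups below, 46.8% of all genes and 53.1% of those above the median level were positive. The groups are small and measured in the same mice, so no direction is read as a trait of a function. Usp11 was at 9.13 to 9.24 in Dp3Yah mice and at 8.97 to 9.20 in controls, and its change of 0.09 did not pass (SE 0.051, limma adjusted p = 0.922).

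The 3 members that work on free chains or at the proteasome had a median change of 0.09. Usp14, which sits on the proteasome and trims its substrates, was at 9.94 to 10.09 in Dp3Yah mice and 9.72 to 10.01 in controls, a change of 0.09 (SE 0.056). Usp5, which takes apart unanchored ubiquitin chains, had a change of 0.09 as well (SE 0.056). Its relative Usp13 was lower in Dp3Yah replicate 2 than in any other mouse, and its change was 0.07 with this mouse and 0.17 without it. None of the 3 passed the limma test, with unadjusted p of 0.116 for Usp14 and 0.149 for Usp5.

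The 7 measured histone and chromatin proteases had 3 positive changes and a median of -0.01. Usp22, the deubiquitinase of the SAGA coactivator complex, was among the least variable members (SD 0.040), and its change was 0.04 (SE 0.038). Usp3, which acts on histone H2A, had a change of 0.05 (SE 0.045). Usp44, at 4.12 to 4.21 in both groups, was the least variable of all members (SD 0.038), and its level was below the median of all genes. Of the 5 members tied to p53 or DNA repair, 4 had a positive change. The largest of these was that of Usp7, which acts on p53 and its ligase Mdm2, followed by Usp10, which acts on p53 in the cytoplasm (0.05, SE 0.062).

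The 3 members that need the activator Wdr48 had positive changes of 0.02 to 0.09, and the largest was that of Usp12 (SE 0.057). Usp46, which regulates glutamate receptor abundance in neurons, had a change of 0.03 (SE 0.049), and Wdr48 itself one of -0.00 (SE 0.046). Of the 6 members at membranes and organelles, 4 had a positive change and the median was 0.03. Usp20, a protease of receptor recycling, was at 7.77 to 7.98 in Dp3Yah mice and 7.78 to 7.88 in controls, with 3 of 5 Dp3Yah mice above every control and a change of 0.06 (SE 0.047). Usp8, which acts on cargo at endosomes, had a change of -0.05 (SE 0.048). Neither passed (limma adjusted p above 0.9 for both).

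Usp18, which removes the ubiquitin-like Isg15 and is induced by interferon, was at 4.83 to 5.26 in Dp3Yah mice and 5.07 to 5.34 in controls. The groups overlapped, and the change was -0.08 (SE 0.077) with Dp3Yah replicate 2 and -0.01 without it. The 4 members with diverged catalytic domains all had positive changes, of 0.00 to 0.05. The largest was that of Usp39, a splicing factor without protease activity, and the next that of Usp50 (0.02, SE 0.060). Usp50 turned to -0.03 without Dp3Yah replicate 1.

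Among the 12 remaining members 5 had a positive change and the median was -0.01. Usp24, another very large protease, was at 7.75, 7.55, 7.70, 7.75 and 7.78 in Dp3Yah mice and 7.62, 7.60, 7.59, 7.62 and 7.64 in controls. In this gene 4 Dp3Yah mice were above every control and replicate 2 was below every control. Its change was 0.09 (SE 0.046, limma adjusted p = 0.922). Without replicate 2 it was 0.13 (limma adjusted p = 0.780). Its second probe set had a change of 0.03 (SE 0.080). Usp38 had a change of 0.08 (SE 0.046). Usp36, a nucleolar protease needed for ribosome production, had the most negative change of the family, -0.13 (SE 0.098, limma adjusted p = 0.939). Its values were 6.69, 6.47, 6.97, 7.05 and 6.81 in Dp3Yah mice and 6.80, 6.95, 7.04, 6.80 and 7.02 in controls, so that the groups overlapped with replicate 2 lowest again. Without replicate 2 the change of Usp36 was -0.04.

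The direction of the members was counted beside that of all genes. Of the 48 members 33 had a positive change (68.8%), as 46.8% of all genes did. The median change of the 47 members other than Usp25 was 0.02, beside -0.00 for all genes. Among the 39 members above the median level 29 had a positive change (74.4%), beside 53.1% of all genes above that level, and the median was 0.04 beside 0.01. The members below the median level had 4 positive changes among 9. Astrocyte markers were higher in Dp3Yah mice in all 7 measured genes as well. Their averages were 10.15 to 10.26 in Dp3Yah mice and 10.03 to 10.22 in controls. Oligodendrocyte markers were higher in 3 of 6 measured genes (averages 10.25 to 10.71 in Dp3Yah mice, 10.23 to 10.58 in controls). Endothelial markers were higher in 1 of 5 (7.67 to 7.80 in Dp3Yah mice, 7.65 to 7.85 in controls). The part of these cell types in the direction of the members was not tested. The count of 33 became 31 after quantile normalisation, 36 after median centring and 36 with array weights, and 30 to 38 when 1 mouse was left out, with 49.9%, 57.5%, 49.9% and 44.1% to 51.9% of all genes positive. These are counts over genes measured in the same mice, and no test was made of them.

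**Figure D4:**
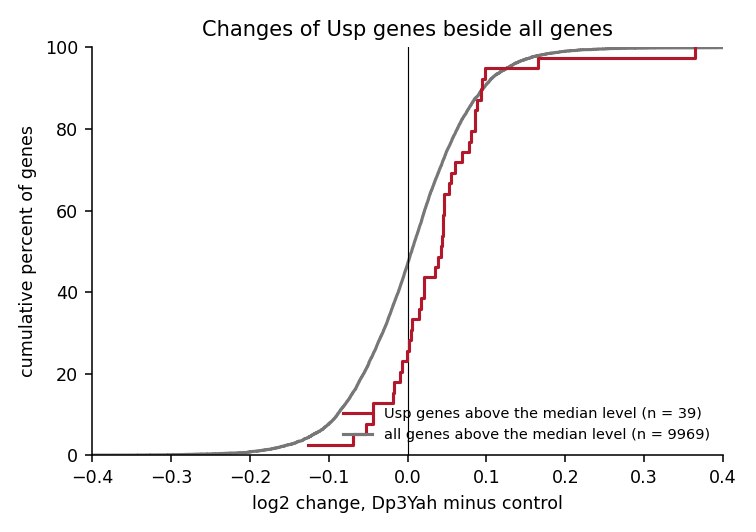
Cumulative percent of genes (vertical axis) by log2 change, Dp3Yah minus control (horizontal axis), for the 39 members above the median level (red) and all 9969 genes above it (grey). The red curve lies to the right of the grey one up to a change of about 0.1, with medians of 0.04 and 0.01, and Usp34 and Usp25 form its last steps.

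The members differed in how much they varied between mice of the same group. The median within-group SD was 0.086, beside 0.087 for all genes. The most variable members were Usp31 (SD 0.246), Usp16 (0.217), Usp54 (0.192) and Usp36 (0.184), and the least variable were Usp44, Usp22, Usp4 (0.045) and Usp28. Usp31 was at 9.42, 9.17, 8.95, 9.39 and 8.81 in Dp3Yah mice and 9.49, 8.90, 9.17, 9.21 and 9.32 in controls. Both groups of Usp31 spanned more than the change of Usp25, and its own change was -0.07 (SE 0.128). Usp54 was at 8.85, 8.27, 8.70, 8.76 and 8.79 in Dp3Yah mice and 8.46, 8.81, 8.58, 8.71 and 8.74 in controls, with replicate 2 lowest once more.

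Dp3Yah replicate 2 had the lowest value of its group in 21 of 48 members (43.8%), and in 35.1% of all genes. Dp3Yah replicate 5 was lowest in 18 members (37.5%), and in 20.2% of all genes. Without Dp3Yah replicate 2 the change of Usp20 was 0.03, that of Usp46 0.02, that of Usp39 0.04, that of Usp8 -0.03, that of Usp54 0.12 and that of Usp25 0.36. For Usp25 the lowest Dp3Yah mouse was replicate 5 and not replicate 2. In controls, replicate 4 was lowest in 16 members (33.3%) and in 16.7% of all genes, and replicate 1 highest in 17 members (35.4%) and in 25.9% of all genes.

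**Figure D5:**
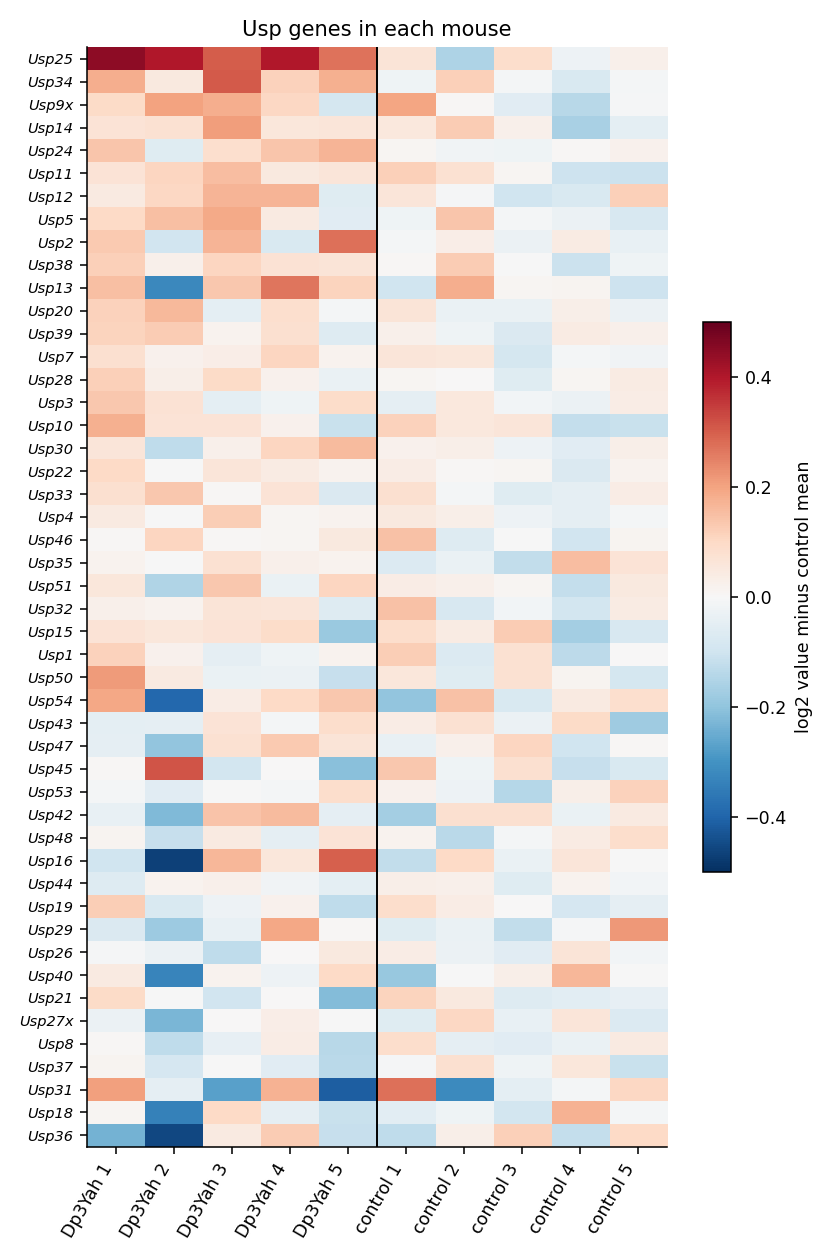
Log2 value of each member minus its control mean in each of the 10 mice, Dp3Yah on the left and controls on the right, sorted by change. Colour runs from -0.5 (blue) to 0.5 (red). Usp25 is red in all 5 Dp3Yah mice, and Dp3Yah replicate 2 is blue for Usp16, Usp36, Usp54 and Usp13.

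The RNA of proteins that Usp25 and Usp28 act on or with was measured for 12 of 13 genes. The proteins themselves, on whose stability these enzymes act, were not measured. In limma 0 of these genes had an unadjusted p under 0.05, as 5.08% of all genes did. That share comes to less than 1 gene in a list of this length. App, whose product is a reported Usp25 substrate, was at 12.31 in both groups (change -0.00, SE 0.050). Bace1, the beta-secretase that cuts App, had a change of -0.02 (SE 0.053). The tankyrases Tnks and Tnks2 had changes of -0.03 (SE 0.049) and 0.02 (SE 0.061), and the adaptor Traf6 one of 0.04 (SE 0.067). The 2 smallest unadjusted p in this list were those of the kinase Syk (-0.07, SE 0.045) and of Fbxw7 (0.07, SE 0.047). Among 14 partners of other USPs, 8 had a positive change and 0 an unadjusted p under 0.05, beside the same 5.08% of all genes. The first of them were Wdr20rt (-0.07, SE 0.040) and Atxn7l3, the adaptor that Usp22 binds in SAGA (0.07, SE 0.042).

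The other families of deubiquitinases were counted in the same way. Together 39 of their 40 genes were measured, 25 had a positive change (64.1%, beside 46.8% of all genes) and the median was 0.02, close to that of the USPs. These lists go by family, and whether each gene makes an active protease was not examined. None passed the adjusted threshold in limma, and 2 had an unadjusted p under 0.05 (5.13%, beside 5.08% of all genes), both in the JAMM domain family. Eif3f, a subunit of a translation initiation factor, had a change of 0.10 (SE 0.040, unadjusted p = 0.0281, adjusted p = 0.922). Mysm1, a histone H2A deubiquitinase, had a change of 0.18 (SE 0.084, unadjusted p = 0.0493), with 4 of 5 Dp3Yah mice above every control.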

How the data were processed

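The deposited values were log2 signals per probe set, which the authors made with RMA (background correction, quantile normalisation and summary of probes). The processing notes also name limma and mm10, with versions not given in the sources used here. Of 35556 probe sets, 21789 were paired with 1 gene by the platform annotation. Where a gene had several, the one brightest on average was used, as for 3 members (Usp24, Usp31 and Usp54). Whether probes of related members cross-hybridise was not examined. Symbols and coordinates came from RefSeq for GRCm38.p6.

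Groups were compared with limma 3.58.1 in R 4.3.3 (lmFit and eBayes, no covariate), two-sided, with Benjamini-Hochberg adjustment over 19939 genes. Single values were tested by exact permutation over all 252 assignments, two-sided. Labels call the arrays biological replicates. The scripts were tested on simulated data.

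The members and lists were chosen with earlier results of these data known. Named were Usp25, Usp28 and Usp16, members with an unadjusted p under 0.05, the 4 most and 4 least variable members, and the 2 smallest p of each list. Usp13, Usp9x and other members outside this rule were named after their values were seen. Alternatives were a replicate block, other probe set choices, a filter on dim genes, array weights, quantile normalisation, leaving out each mouse, a variance that was trended and robust, median centring, and a rank test in the manner of the study's fold change rank statistics (thresholds 0.025 and 0.975).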

Additional observations from a re-analysis of the deposited data

Results flagged for a closer look

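In 7 of 96 groups (48 members in each genotype) 1 mouse lay far from the other 4 by Dixon's ratio of gap to range, above 0.71. Chance flags about 1 in 20 groups. Of these, 3 were Dp3Yah replicate 2, 2 were control replicate 4, 1 was Dp3Yah replicate 3 and 1 was Dp3Yah replicate 5.

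Dp3Yah replicate 2 was low for Usp13, at 6.618 with the other Dp3Yah mice at 7.053 to 7.208, and the change of Usp13 was 0.07 with it and 0.17 without it. It was low for Usp54, at 8.267 with the others at 8.697 to 8.854 (change 0.01 with it, 0.12 without). It was low for Usp27x, an X-linked relative of Usp22, at 6.981 with the others at 7.179 to 7.241 (change -0.04 with it, 0.00 without).

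Dp3Yah replicate 3 was high for Usp14, at 10.09 with the others at 9.938 to 9.956 (change 0.09 with it, 0.07 without). Dp3Yah replicate 5 was low for Usp15, at 8.662 with the others at 8.905 to 8.939 (change 0.02 with it, 0.07 without). Control replicate 4 was low for Usp22, at 10.23 with the other controls at 10.31 to 10.34 (change 0.04 with it, 0.03 without). It was also low for Usp51, at 5.379 with the others at 5.509 to 5.547 (change 0.02 with it, -0.01 without).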

How the results depend on the processing

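Usp25, Usp28 and the median of the other members (0.02 to 0.04 over all alternatives) kept their direction under every alternative run. Over all genes, 3 passed in the main analysis, 6 with a trended and robust variance and 5 with array weights. When 1 mouse was left out, 1 to 4 passed (1 without Dp3Yah replicate 4 or control replicate 3, 4 or 5). The rank test had 915 genes past its thresholds, but by its scaling over all genes some are past them in any data. Usp25 passed with a trended and robust variance (0.36, adjusted p = 0.0447) and with array weights (0.36, adjusted p = 0.0455). Its change was 0.33 to 0.39 with a mouse left out. Under the other alternatives in limma it did not pass (adjusted p of 0.0519 to 0.341). Its rank f was 0.998, which is not adjusted for the number of genes. The change of Usp16 (-0.01) was 0.0306 with array weights and ranged from -0.087 to 0.105 with a mouse left out; its rank f was 0.681. Its 0.0065 after median centring reflects the same shift of 0.016 in every gene. The count of members with an unadjusted p under 0.05 was 2. It was 3 (Usp24 added) after quantile normalisation, median centring or with array weights (5.31%, 5.28% and 5.96% of all genes), and 2 to 5 with a mouse left out: 4 without Dp3Yah replicate 2 (Usp13 and Usp24 added, 6.19% of all genes) or control replicate 1 (Usp11 and Usp9x, 5.36%), and 5 without Dp3Yah replicate 5 (Usp5, Usp9x and Usp12, 4.17%) or control replicate 2 (Usp5, Usp14 and Usp38, 6.79%). Usp25 minus Usp28 was 0.28 to 0.35 and Usp25 minus Usp16 was 0.25 to 0.47 with a mouse left out. Usp50 (-0.033 to 0.048), Usp54 (-0.035 to 0.116) and Usp31 (-0.149 to 0.016) turned sign only there. Of 393 alternatives in limma for the 22 other named members, 385 kept direction and side, and 0 gave a call. The rank test is not in this count, and it put Usp34 past its threshold (f of 0.992). The labels do not say whether mice with the same replicate number share anything else. Same-numbered mice correlated between -0.36 and 0.32, and 2 of 5 pairs correlated best with their own number. These correlations cannot decide it. With the replicate number as a block, 3 genes passed, 2 members had an unadjusted p under 0.05 and Usp25 had an adjusted p of 0.341. In the paired sign-flip test with the block, the Usp25 minus Usp28 difference of 0.32 had an exact p of 0.0625, the smallest it allows, and the Usp25 minus Usp16 difference of 0.37 one of 0.188.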

Other observations

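Outside the USPs and the JAMM family, no deubiquitinase had an unadjusted p under 0.05 in limma, beside 5.08% of all genes. Josd1, an ataxin-type protease, had a change of -0.19 (SE 0.102), with 3 of 5 Dp3Yah mice below every control. Its relative Atxn3, the protease of Machado-Joseph disease, had a change of 0.10 (SE 0.050), with 3 of 5 Dp3Yah mice above every control. Otulin, which cuts linear ubiquitin chains, had a change of 0.12 (SE 0.060), and Otud3 one of -0.09 (SE 0.045), with 3 of 5 Dp3Yah mice outside the controls in each. The neuronal hydrolase Uchl1 had a change of 0.08 (SE 0.072) and Uchl3 one of 0.06 (SE 0.048). Mindy2 and Mindy3 both had a change of 0.08 (SE 0.062 and 0.073). Of 6 genes for ubiquitin and its activating enzymes, only Uba6 was measured on its own probe set (-0.07, SE 0.110). The tumour suppressor Cyld, which has a USP fold, had a change of 0.03 (SE 0.058), and Usp9y, the Y-linked counterpart of Usp9x, one of -0.04 (SE 0.038) at a level below the median.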
